A study of Mus musculus with 20 samples.

Results

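Liver expression was followed for 8 genes that release fatty acids from plasma lipoproteins, remodel those particles or take up their remnants: Lpl, Lipc, Lipg, Pltp, Lcat, Angptl4, Lmf1 and Lrp1. Every probe that the array files name for one of them was taken. This gave 9 probes, and 1 more, carried under the older symbol Tmem112, was assigned to Lmf1 through its RefSeq accession, so that 10 probes of 8 genes stood among 41174 probes of 27573 gene names. All 10 passed the filter on dim spots, as did 26130 probes in all.

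Liver RNA came from 20 male mice on a mixed Sv129/C57Bl6J background, aged 28 weeks, in 4 groups of 5. Wild-type mice and mice with an LXR alpha/beta double knockout ate either a normal diet (chow) or a Western diet (a cocoa butter diet with mouse chow) for 7 weeks. Each liver was hybridised to its own single-colour array. The design text counts 5 mice per group, so replicates were different animals.

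Lipoprotein lipase (LPL), hepatic lipase (the product of Lipc) and endothelial lipase (Lipg) are related enzymes that hydrolyse triglycerides and phospholipids of circulating lipoproteins at the vessel wall. LPL is made chiefly by adipose tissue, heart, skeletal muscle and macrophages and is low in adult liver, whereas hepatic lipase is a hepatocyte product. LCAT esterifies cholesterol on high-density lipoprotein (HDL), PLTP moves phospholipid between particles, ANGPTL4 inactivates LPL, LMF1 is needed to fold the lipases in the endoplasmic reticulum, and LRP1 clears remnants. The liver X receptors (LXR) are nuclear receptors for oxysterols, and Lpl and Pltp are among the genes they are known to activate. In what follows a value is the log2 signal of a probe minus log2 of the 75th percentile of its array, so that 0 is the level of that percentile. Differences are in log2 units ± SE from limma, "rose" and "fell" are used only for an adjusted p under 0.05, and levels are not compared between probes.

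The targeted genes separated the genotypes. Nr1h3 (LXR alpha) lay between 3.91 and 4.76 in the 10 wild-type livers and between -5.32 and -3.64 in the 10 knockout livers, and Nr1h2 (LXR beta) between 0.66 and 1.08 against -5.65 to -3.47. The 75th percentile of the signal was 161 to 407 intensity units per array, 53.6% to 67.1% of probes were well above background, and replicates of a group correlated at 0.952 to 0.990 across probes. That percentile ran from 161 to 266 in wild-type mice on chow and 250 to 318 on Western diet. In knockout mice it ran from 212 to 308 on chow and 310 to 407 on Western diet. Small differences from the last group therefore depend on the scaling. Arrays fell into 6 sets by the scan time in the file headers, and these sets are taken here as slides. Slide barcodes, where given, never crossed scan times. Slides that held both groups of a comparison gave the within-slide values printed below.

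Upstream sequence from RefSeq (build GRCm38.p6) was used for 5 of the 8 genes (Lipc, Pltp, Lcat, Lmf1 and Lrp1). The 250 bases before the start are shown for Lipc, which has 2 annotated starts, and for Lcat, because these are the well-measured members that were lower together in knockout livers on Western diet. The motifs searched on both strands were the nuclear receptor half-site AGGTCA, its direct repeats with a spacer of 4 bases (DR4, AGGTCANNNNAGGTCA, the spacing that LXR binds) or 1 base (DR1, AGGTCANAGGTCA), TATAAA and the GC box CCGCCC. A DR4 or DR1 match also contains AGGTCA matches. Capitals mark every match.
Lipc, first start, chr9:70952222-70952471, minus strand: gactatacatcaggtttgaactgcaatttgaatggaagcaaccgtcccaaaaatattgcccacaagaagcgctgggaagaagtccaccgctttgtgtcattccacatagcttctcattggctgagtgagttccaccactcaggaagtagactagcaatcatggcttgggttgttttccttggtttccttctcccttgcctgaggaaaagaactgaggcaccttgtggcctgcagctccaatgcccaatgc
Lipc, second start, chr9:70934809-70935058, minus strand: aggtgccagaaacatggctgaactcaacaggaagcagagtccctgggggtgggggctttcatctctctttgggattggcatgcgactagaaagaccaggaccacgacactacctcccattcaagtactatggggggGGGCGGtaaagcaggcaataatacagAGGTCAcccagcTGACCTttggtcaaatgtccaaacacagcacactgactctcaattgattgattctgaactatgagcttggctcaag
Lcat, chr8:105943403-105943652, minus strand: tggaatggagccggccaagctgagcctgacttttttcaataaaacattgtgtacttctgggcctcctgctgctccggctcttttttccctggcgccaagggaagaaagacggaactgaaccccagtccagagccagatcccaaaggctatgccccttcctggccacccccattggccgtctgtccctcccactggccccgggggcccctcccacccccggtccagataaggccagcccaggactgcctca
The second Lipc window holds AGGTCA from -88 to -83 and its reverse complement from -76 to -71, counted back from the start, and a GC box on the minus strand from -114 to -109. The first Lipc window and the Lcat window hold none of the motifs. Among 32841 promoter windows of the same length, 14.0% hold AGGTCA, 0.0152% DR4, 0.0335% DR1, 12.4% TATAAA and 32.7% CCGCCC. These matches describe the letters and not binding. No DR4 or DR1 match lies in the windows of the 5 genes.

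Lpl rose with the Western diet in livers of both genotypes, by more than 10-fold by either probe. Its 2 probes lie 5217 bases apart on the plus strand of chromosome 8 (mm8, 71835357 to 71835416 for probe 1 and 71830140 to 71830199 for probe 2) and both were well above background on all 20 arrays. On chow probe 1 read -0.37, 0.02, -0.43, 0.10 and 0.27 in wild-type mice 1 to 5. On Western diet the wild-type values were 4.67, 4.75, 4.62, 4.16 and 4.40. Every wild-type mouse on Western diet thus lay far above every wild-type mouse on chow.

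In knockout mice 1 to 5 probe 1 read 1.04, -0.39, 0.51, -0.88 and 1.34 on chow. The knockout values on Western diet were 4.11, 4.52, 4.43, 3.75 and 4.70. The diet groups did not overlap in the knockout either, and the normal-diet knockout values were the more scattered (SD 0.94, against 0.30 in wild-type on chow, n = 5 each).

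**Figure D1:**
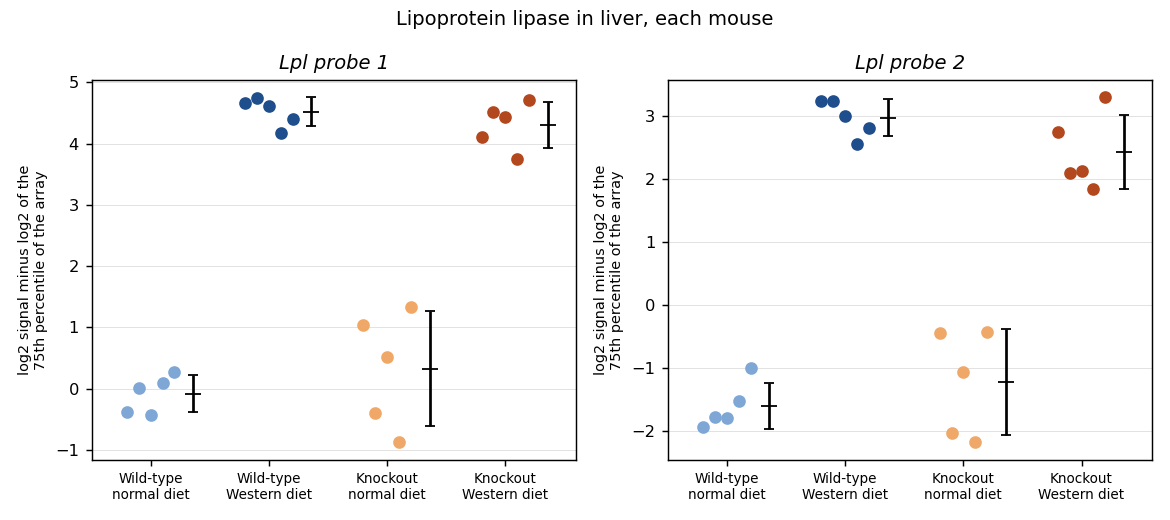
Signal of both Lpl probes in each of 20 livers, as log2 signal minus log2 of the array's 75th percentile, by genotype and diet; points are mice and bars the mean ± SD of 5. Probe 1 lies between 3.75 and 4.75 in all 10 mice on Western diet and between -0.88 and 1.34 in all 10 on chow.

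The diet difference of probe 1 was 4.6 ± 0.33 in wild-type mice (24.3-fold, adjusted p = 3.14e-07) and 3.98 ± 0.33 in knockout mice (15.8-fold, adjusted p = 2.28e-08). Probe 2 gave 4.58 ± 0.34 (23.9-fold, adjusted p = 4.19e-07) and 3.65 ± 0.34 (12.6-fold, adjusted p = 1.00e-07). In wild-type livers these were the highest and second highest differences of 26120 probes tested. In knockout livers, where far more of the transcriptome moved with diet, they ranked 141 and 210 of 26125 from the top. Both probes kept the call in each genotype under every alternative run, with values of 3.32 to 4.73 in wild-type and 2.61 to 4.23 in knockout mice, and all 4 slides with both wild-type groups (4.07 to 5.05 for probe 1) and all 5 with both knockout groups (3.06 to 4.92) showed the rise. The probes correlated at 0.99 over the 20 arrays, which share the diet groups.

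Genotype made no difference in Lpl that passed the test. On chow knockout minus wild-type was 0.41 ± 0.33 for probe 1 (95% interval -0.27 to 1.09, adjusted p = 0.415) and 0.38 ± 0.34 for probe 2 (adjusted p = 0.477). On Western diet it was -0.22 ± 0.33 (-0.90 to 0.47, adjusted p = 0.590) and -0.55 ± 0.34 (adjusted p = 0.177), with the sign of probe 1 turning positive after quantile normalization (0.02) and in the deposited normalized values (0.04). The diet response itself was smaller in the knockout by 0.62 ± 0.46 and 0.92 ± 0.48, with intervals of -1.59 to 0.34 and -1.93 to 0.08 (adjusted p = 0.351 and 0.169), so a difference in response of up to these sizes was not resolved with 5 mice per group.

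Because macrophages and adipocytes also make LPL, their markers are set beside this result. Of 12 macrophage markers 0 passed the test for diet in wild-type livers (limma, median difference 0.73; background 5.51% of genes in either direction), whereas 11 of 12 rose in knockout livers (median 3.99; background 49.9%). The 6 markers of Kupffer cells, the resident macrophages of the liver, went another way: with diet 0 passed in wild-type (limma, median 0.88) and 0 rose and 1 fell in knockout livers (median -0.49), and 5 of 6 were lower in the knockout on Western diet (median -4.06; background 56.7%). Already on chow 6 of 12 macrophage markers were higher and 0 lower in the knockout (limma, median 1.12, background 19.0%). Of the Kupffer cell markers 3 of 6 were lower and 0 higher there (median -3.09). The summed macrophage signal, in multiples of the array's 75th percentile, ran from 21.2 to 42.9 in wild-type mice on chow, 27.4 to 68.8 on Western diet, 25.0 to 102.6 in knockout mice on chow and 509 to 621 on Western diet. The adipocyte markers Adipoq, Plin1, Lep, Retn and Adrb3 were well above background on no array of either Western-diet group, and the summed signal of the 7 adipocyte markers was 2.10 to 3.65 and 1.51 to 3.22 in wild-type mice on normal and Western diet and 4.02 to 7.03 and 17.4 to 25.0 in knockout mice. Of the 2 adipocyte markers that were tested, 1 rose and 1 fell with diet in the knockout (limma, median -1.10). The marker that rose was Fabp4 (1.98), which macrophages express as well. Cfd was well above background on no knockout array on Western diet. Of the 6 muscle markers Ckm and Mb were well above background on no array, Acta1 on 5 of 5 knockout arrays and 0 of 5 wild-type arrays on Western diet, Myh2 on 0 and 5, and Tnnc2 on 4 and 4. Of the 3 that were tested 0 rose with diet in either genotype and Myh2 fell in the knockout (-4.78 ± 0.78). The part of macrophages in the knockout rise of Lpl was not tested.

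Lipc was lower in knockout livers, slightly on chow and strongly on Western diet. Its probe (chromosome 9, 70612109 to 70615785 of mm8, minus strand, an interval of 3677 bases) was well above background on all arrays. Wild-type mice 1 to 5 read 2.56, 2.63, 2.79, 3.08 and 2.75 on chow. Wild-type values on Western diet were 2.32, 2.03, 2.40, 2.43 and 2.46. The knockout read 2.23, 2.29, 1.79, 2.04 and 1.53 on chow and 0.13, -1.02, -0.99, 0.23 and -0.12 on Western diet. The 5 knockout mice on Western diet were lower than the other 15 mice, and the 2 genotypes did not overlap on either diet.

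For Lipc the genotype difference was -0.78 ± 0.23 on chow (adjusted p = 0.0204) and -2.68 ± 0.23 on Western diet (6.42-fold lower, adjusted p = 1.77e-08). Western diet lowered it by 2.33 ± 0.23 in knockout mice (5.03-fold, adjusted p = 1.59e-07). In wild-type mice the diet difference was -0.43 ± 0.23 (adjusted p = 0.315), although no value on Western diet reached the lowest on chow. The difference between the diet effects was -1.90 ± 0.32 (95% interval -2.57 to -1.23, adjusted p = 0.000290) and passed under every alternative. The normal-diet call was lost without knockout mouse 5 (-0.67, adjusted p = 0.0561) or wild-type mouse 4 (-0.71, adjusted p = 0.0535). Within single slides the Western-diet genotype difference was -3.02 to -2.17 on 4 slides.

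**Figure D2:**
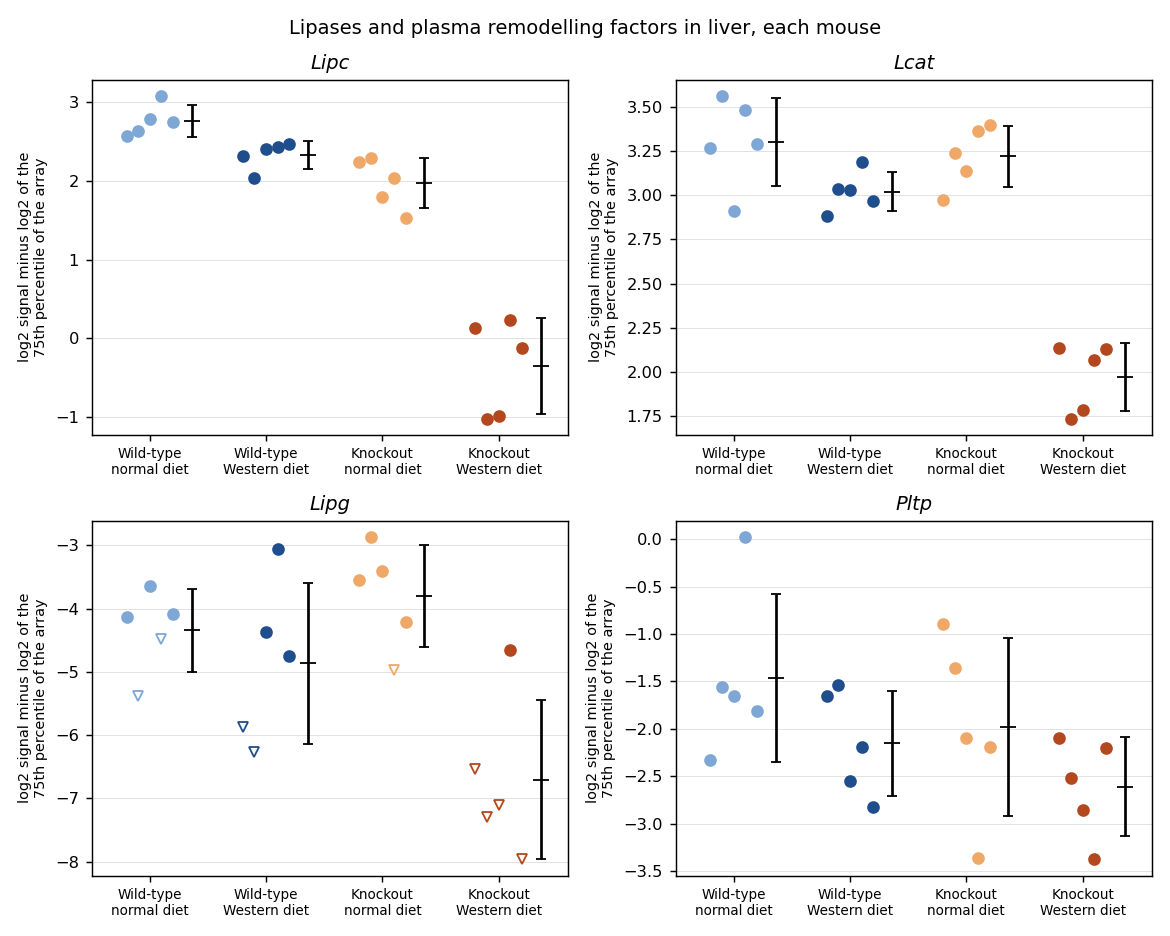
Signal of Lipc, Lcat, Lipg and Pltp in each of 20 livers, as log2 signal minus log2 of the array's 75th percentile, by genotype and diet. Filled points were well above background, open triangles were not, and bars are the mean ± SD of 5 mice; knockout mice on Western diet hold the lowest 5 values of Lipc (-1.02 to 0.23) and of Lcat (1.74 to 2.13).

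Lcat was lower in knockout livers on Western diet than in any other group. The probe lies on chromosome 8 (108829086 to 108829145 of mm8, minus strand). Wild-type values were 3.27, 3.56, 2.91, 3.48 and 3.29 on chow and 2.88, 3.03, 3.03, 3.19 and 2.97 on Western diet. Knockout values on chow were 2.97, 3.24, 3.14, 3.36 and 3.39, inside the wild-type range. On Western diet they were 2.13, 1.74, 1.79, 2.07 and 2.13, below all other mice.

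The Lcat difference between genotypes was -1.05 ± 0.13 on Western diet (2.07-fold lower, adjusted p = 1.50e-06) against -0.08 ± 0.13 on chow (interval -0.35 to 0.19, adjusted p = 0.700). Diet lowered Lcat by 1.25 ± 0.13 in the knockout (2.38-fold, adjusted p = 3.04e-07), and the wild-type diet difference was -0.28 ± 0.13 (adjusted p = 0.243). The difference between the 2 diet effects was tested directly and was -0.97 ± 0.18 (adjusted p = 0.000711). On the 4 slides with both Western-diet groups the genotype difference was -1.25 to -0.75.

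Hepatocyte markers moved beside Lipc and Lcat. Of 8 measured hepatocyte markers 8 fell with Western diet in the knockout (median difference -0.997; background 49.9% of genes in either direction) and 7 were lower than in wild-type mice on that diet (median -0.67; background 56.7%), whereas 0 passed for diet in wild-type livers (limma, median -0.30) or for genotype on chow (limma, median -0.08). Their summed signal was 606 to 714 times the array's 75th percentile in knockout mice on Western diet, 782 to 1096 in wild-type mice on that diet, and on chow 1018 to 1270 (knockout) and 1057 to 1484 (wild-type). In whole liver, fewer cells of a type and less RNA per cell cannot be told apart, and the part of either in the lower Lipc and Lcat was not tested. Of the 9 stellate cell and fibroblast markers 6 rose and 0 fell with Western diet in the knockout (limma; background 49.9%).

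Lipg was close to the limit of measurement in all groups. Its probe on chromosome 18 (75065340 to 75065399 of mm8, minus strand) was well above background on 3 of 5 wild-type arrays on each diet, on 4 of 5 knockout arrays on chow and on 1 of 5 on Western diet. It thus passed the filter only through the knockout group on chow. Tests that use this group, among them diet in the knockout and the interaction, are therefore not independent of the filter. Wild-type values were -4.13, -5.38, -3.65, -4.48 and -4.08 on chow and -5.87, -6.26, -4.37, -3.06 and -4.75 on Western diet. The knockout read -3.55, -2.87, -3.40, -4.97 and -4.21 on chow and -6.53, -7.29, -7.11, -4.65 and -7.96 on Western diet. Knockout mouse 4 on Western diet, the measured one, overlapped the other groups.

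The fall of Lipg with diet in the knockout was -2.91 ± 0.61 (adjusted p = 0.000674) negative on 4 of the 5 slides with both groups, and was -1.44 (adjusted p = 0.00512) with dim values raised to the lowest level well above background on their array, but did not pass with normexp background correction (-0.73, adjusted p = 0.237). Knockout minus wild-type on Western diet was -1.84 ± 0.61 (adjusted p = 0.0152), a call lost with that floor (-0.74, adjusted p = 0.117) or without wild-type mouse 4 (-1.39, adjusted p = 0.0519). The interaction, -2.39 ± 0.87 (adjusted p = 0.0492), lay at the threshold and did not pass in 21 of 32 alternatives, the floor among them (-1.18, adjusted p = 0.126). The genotype difference on chow (0.55 ± 0.61, adjusted p = 0.577) and the diet difference in wild-type mice (-0.52 ± 0.61, adjusted p = 0.691) did not pass.

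Pltp, an LXR-activated gene by general knowledge, passed no test here. The probe lies on chromosome 2 (164531715 to 164535671 of mm8, minus strand, an interval of 3957 bases) and was well above background on all arrays. Wild-type values were -2.33, -1.56, -1.66, 0.02 and -1.81 on chow and -1.66, -1.54, -2.55, -2.19 and -2.83 on Western diet. Knockout values were -0.89, -1.36, -2.10, -3.36 and -2.19 on chow and -2.09, -2.52, -2.86, -3.38 and -2.20 on Western diet. All 4 groups overlapped, and wild-type mouse 4 on chow stood highest.

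Knockout minus wild-type Pltp was -0.51 ± 0.45 on chow (interval -1.45 to 0.42, adjusted p = 0.457) and -0.46 ± 0.45 on Western diet (-1.39 to 0.48, adjusted p = 0.398). The diet difference was -0.69 ± 0.45 in wild-type (-1.62 to 0.25, adjusted p = 0.437) and -0.63 ± 0.45 in knockout livers (-1.56 to 0.31, adjusted p = 0.254). The interaction was 0.06 ± 0.63 (adjusted p = 0.963). The genotype and diet intervals reach past a 2-fold fall in each comparison. Without wild-type mouse 4 on chow the genotype difference on chow was -0.14 and the diet difference in wild-type mice -0.31.

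Angptl4, which encodes the secreted inhibitor of LPL, moved opposite to Lpl with diet, but many of its spots were of doubtful quality. Its probe (chromosome 17, 33381815 to 33381874 of mm8, minus strand) was bright and unsaturated on all arrays, and the extraction software marked 10 of 20 spots as outliers, which were left out. The 5 wild-type mice on chow read 7.19, 7.10, 6.58, 7.01 and 7.46. Usable wild-type values on Western diet were 4.89 (mouse 1) and 5.78 (mouse 5). The knockout had 1 usable value on chow (6.39, mouse 3) and a pair on Western diet (5.21, mouse 4, and 4.46, mouse 5). The single chow value of the knockout was assumed to vary like the other groups.

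On these values Angptl4 fell with Western diet by 1.73 ± 0.32 in wild-type mice (3.33-fold, n = 5 and 2, adjusted p = 0.0195) and by 1.56 ± 0.48 in knockout mice (2.94-fold, n = 1 and 2, adjusted p = 0.0238). With the marked spots kept, all 20 values were available. The diet difference was then -1.15 in wild-type mice, which did not pass (adjusted p = 0.0513), and -1.27 in knockout mice, which did (adjusted p = 0.00382). The wild-type range was then 6.56 to 7.44 on chow and 4.87 to 6.76 on Western diet, which overlap, and the knockout range 5.68 to 6.99 and 4.45 to 5.83, which overlap as well. The wild-type call was also lost without Western-diet mouse 1 (-1.29, adjusted p = 0.144) and the knockout call without Western-diet mouse 5 (-1.18, adjusted p = 0.0979). With the slide as a block neither passed (-1.68, adjusted p = 0.188, and -1.25, adjusted p = 0.227). The wild-type call was lost in the deposited normalized values (adjusted p = 0.100), and the knockout call with quantile normalization (-1.18, adjusted p = 0.0772) and with only its 2 groups fitted (adjusted p = 0.0711). Knockout minus wild-type was -0.68 ± 0.43 on chow (adjusted p = 0.320) and -0.50 ± 0.39 with the Western diet (adjusted p = 0.302), and the interaction was 0.18 ± 0.58 (adjusted p = 0.867), of either sign across alternatives.

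Lmf1 was lower in knockout than in wild-type livers on Western diet. The probe is on chromosome 17 (25390269 to 25390328 of mm8, plus strand), and 7 of its 20 spots were marked as outliers. Usable wild-type values were 4.14, 4.34 and 4.22 on chow (mice 3 to 5) and 4.15, 3.90 and 3.90 on Western diet (mice 1, 3 and 5). Knockout mice read 3.83 and 3.81 on chow (mice 1 and 2) and 3.42, 3.37, 3.77, 3.46 and 3.53 on Western diet. The genotypes did not overlap on either diet among usable spots, which on chow were only 3 wild-type and 2 knockout values. With marked spots kept they overlapped on chow (4.12 to 4.31 in wild-type, 3.80 to 4.21 in knockout mice). On Western diet they did not (3.88 to 4.47 in wild-type, 3.34 to 3.74 in knockout mice).

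The Lmf1 genotype difference was -0.48 ± 0.13 on Western diet (1.39-fold lower, n = 5 and 3, adjusted p = 0.00672) and -0.62 (adjusted p = 0.000258) with marked spots kept. The call was lost with scaling to the array median (-0.50, adjusted p = 0.0846) and with normexp (-0.38, adjusted p = 0.131). On chow the genotype difference was -0.41 ± 0.16 (adjusted p = 0.0946), and diet differences were -0.25 ± 0.14 in wild-type (adjusted p = 0.383) and -0.31 ± 0.14 in knockout mice (adjusted p = 0.0955). The knockout diet difference passed with marked spots kept (-0.46, adjusted p = 0.00384), with the slide as a block (-0.38, adjusted p = 0.0362), in the deposited normalized values (-0.30, adjusted p = 0.0259) and without Western-diet mouse 3 (-0.38, adjusted p = 0.0446).

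**Figure D3:**
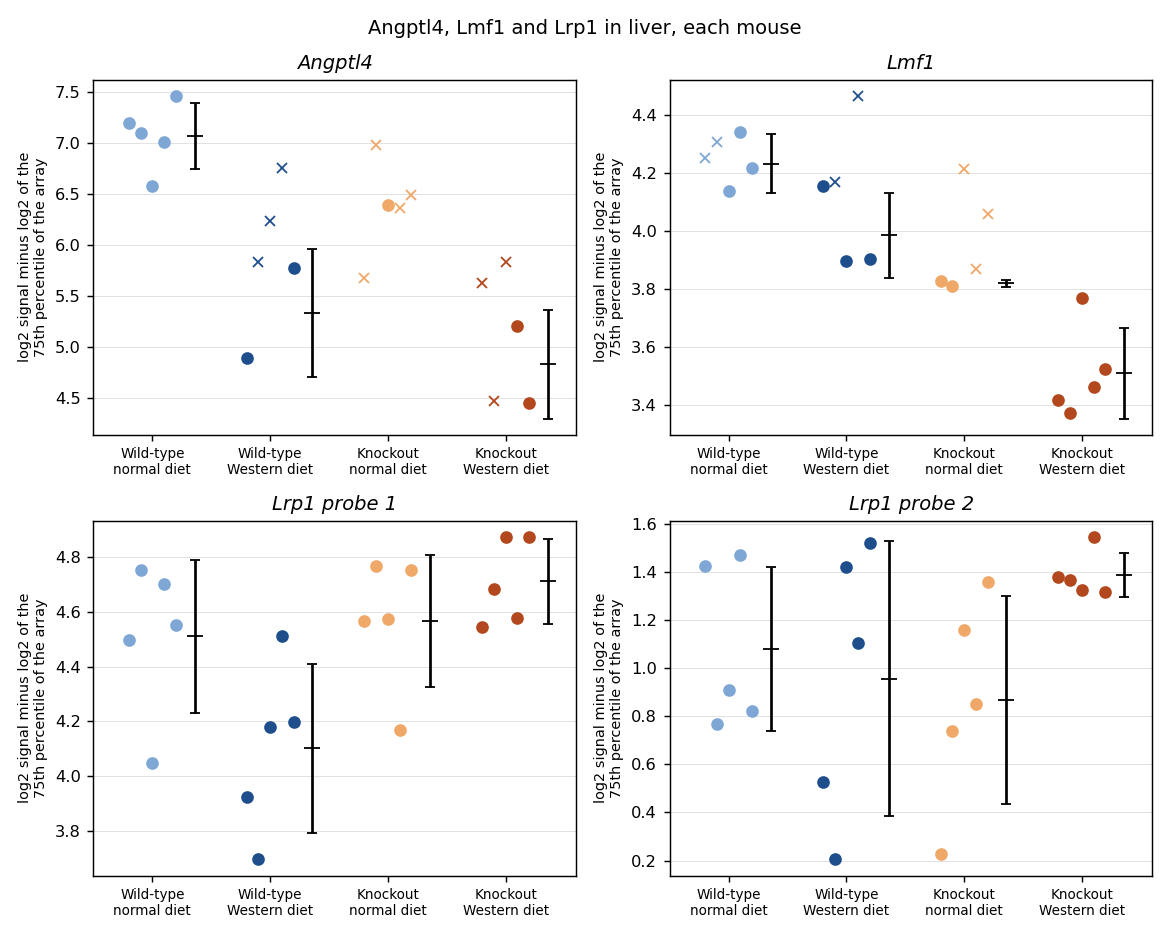
Signal of Angptl4, Lmf1 and both Lrp1 probes in each of 20 livers, as log2 signal minus log2 of the array's 75th percentile. Filled points are usable spots, crosses are spots marked as outliers and left out, and bars are the mean ± SD of the usable spots where there were at least 2; Lrp1 probe 1 lies at 4.55 to 4.87 in knockout mice on Western diet, above the wild-type range of 3.70 to 4.51 on that diet.

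Lrp1, the remnant receptor, was higher in knockout than in wild-type livers on Western diet by probe 1. That probe (chromosome 10, 126941466 to 126941525 of mm8, minus strand) read 4.50, 4.75, 4.05, 4.70 and 4.55 in wild-type mice on chow and 3.92, 3.70, 4.18, 4.51 and 4.20 on Western diet. Knockout mice read 4.57, 4.77, 4.57, 4.17 and 4.75 on chow and 4.55, 4.69, 4.87, 4.58 and 4.87 on Western diet. On Western diet every knockout value lay above every wild-type value, and on chow the genotypes overlapped.

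The Lrp1 probe 1 difference was 0.61 ± 0.16 on Western diet (1.53-fold, adjusted p = 0.00341), positive on all 4 slides with both groups (0.36 to 1.18), and was lost with scaling to the array median (0.48, adjusted p = 0.0909) or with normexp (0.83, adjusted p = 0.0614). On chow it was 0.05 ± 0.16 (adjusted p = 0.848), and the interaction was 0.55 ± 0.23 (adjusted p = 0.0822), which passed after quantile normalization (0.76, adjusted p = 0.0125), in the deposited normalized values (0.81, adjusted p = 0.0164) and without wild-type mouse 4 on Western diet (0.66, adjusted p = 0.0367) or mouse 3 on chow (0.67, adjusted p = 0.0307). The second probe lies 49224 bases away (126990690 to 126990749, minus strand, annotated to a cDNA) and gave 0.43 ± 0.24 for the same comparison (interval -0.08 to 0.94, adjusted p = 0.139), in the same direction but without a call. It ranged from 1.32 to 1.55 in knockout mice and 0.20 to 1.52 in wild-type mice on Western diet. Diet differences of both probes did not pass, at -0.41 ± 0.16 (adjusted p = 0.166) and -0.12 ± 0.24 (adjusted p = 0.828) in wild-type and 0.15 ± 0.16 (adjusted p = 0.475) and 0.52 ± 0.24 (adjusted p = 0.0845) in knockout mice. In the knockout, probe 1 passed with quantile normalization (0.44, adjusted p = 0.0195) and in the deposited normalized values (0.42, adjusted p = 0.0441). Probe 2 passed with only the 2 groups fitted (adjusted p = 0.0491), without chow mouse 5 (0.64, adjusted p = 0.0416) and with normexp without outliers (0.53, adjusted p = 0.0357). Of 15 measured genes of lipoprotein receptors and remnant uptake, 6 were higher and 3 lower in the knockout on Western diet, near the background of 56.7%. Vldlr, Sorl1 and Lrp12 were among the higher and Lrp2 (-4.95 ± 0.39) among the lower, and Vldlr, Sorl1 and Lrp2 were dim in a genotype, as given below. On that diet 11 of 12 macrophage markers were higher in the knockout (background 56.7%) and 5 of 6 Kupffer cell markers were lower. The part of macrophages in the Lrp1 difference was not tested.

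Counted over the 10 probes, 0 were higher and 1 lower in the knockout on chow by limma, against 18.4% of all probes tested that differed (10.3% higher, 8.13% lower). With Western diet 1 was higher and 4 lower in the knockout, against 57.8% of all probes (24.0% higher, 33.8% lower). The diet raised 2 and lowered 1 in wild-type livers, against 5.10% of all probes (2.61% and 2.49%). It raised 2 and lowered 4 in knockout livers, against 50.3% (21.5% and 28.7%). The interaction passed for 3 probes, all negative, against 26.3% (11.9% positive, 14.4% negative). The counts for genotype on Western diet, for diet in the knockout and for the interaction are near the background share. The 3 calls for diet in wild-type come from only Lpl (both probes) and Angptl4. The median difference of the 10 probes was -0.15, -0.49, -0.34, -0.47 and -0.34 in these 5 comparisons in turn, and that of all probes -0.07, -0.17, -0.03, -0.13 and -0.09. Among the 8 probes with all 20 values, genotype groups did not overlap for 1 probe on chow (14.3% of all probes) and 3 with the Western diet (41.4%), and diet groups for 3 in wild-type (7.70%) and 4 in knockout mice (32.9%).

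**Figure D4:**
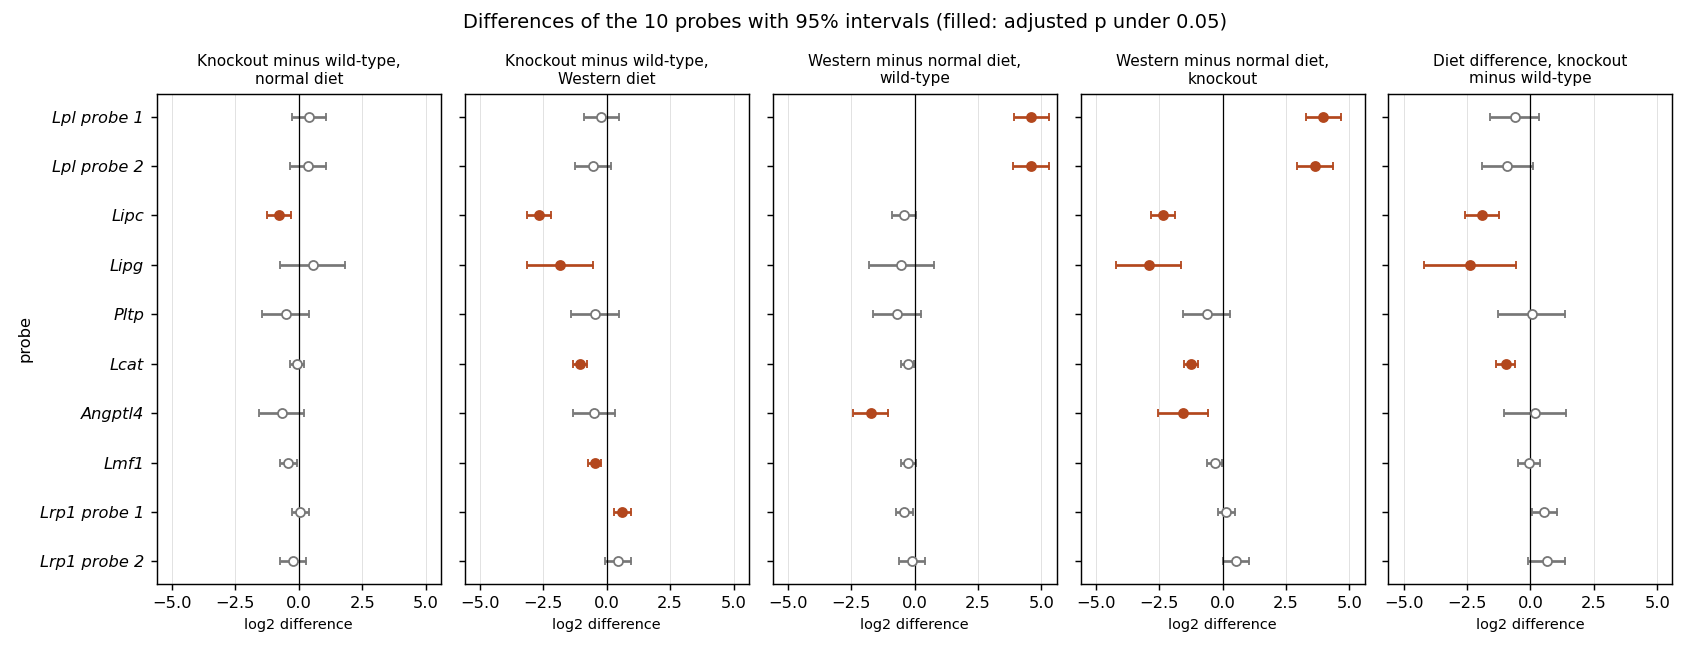
Log2 differences of the 10 probes with 95% intervals in the 5 comparisons, filled where the adjusted p was under 0.05. The intervals of Angptl4 and Lmf1, which had spots left out, are drawn too narrow. Both Lpl probes stand at 3.65 to 4.6 in both diet comparisons and at -0.55 to 0.41, without a call, in both genotype comparisons. Lipc, Lipg and Lcat are the 3 probes below 0 for the difference between diet effects that passed.

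Other genes that act with these enzymes were read from lists of 1 probe per gene. Of 15 measured cofactors, inhibitors and processing enzymes of the lipases, 0 rose and 1 fell with diet in wild-type livers (background 5.51% of genes). In the knockout 1 rose and 8 fell with diet (background 49.9%), among them Angptl6 (-2.33 ± 0.17). Between genotypes on Western diet 2 were higher and 9 lower (background 56.7%), among them Angptl6 (-2.00 ± 0.17), Angptl8 (-1.76 ± 0.54) and Pcsk6 (-1.69 ± 0.16). On chow Sdc1, a heparan sulfate proteoglycan of remnant uptake, was higher (0.61 ± 0.14), and Sel1l, which LPL needs to leave the endoplasmic reticulum, and the proprotein convertase Pcsk6 were lower (-0.81 ± 0.16 and -0.80 ± 0.16; background 19.0%). Gpihbp1, the endothelial carrier of LPL, differed by 0.24 with diet in wild-type and by 0.08 in knockout mice and did not pass. For the interaction 5 of the 15 were lower and 0 higher in the limma fit (background 26.6%).

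Among 13 genes listed for HDL formation and cholesterol uptake from HDL, 2 rose and 2 fell with Western diet in wild-type livers (background 5.51% of genes in either direction). The sterol exporters Abcg1 (1.78 ± 0.29) and Abca1 (0.51 ± 0.13) rose, and Apom (-0.69 ± 0.15) and Apoa1 (-0.48 ± 0.14), both HDL proteins, fell. In knockout livers 3 rose and 4 fell, with Pon1, the HDL-bound paraoxonase, at -4.46 ± 0.31 and Abcg1 at 2.90 ± 0.29, a count near the background of 49.9%. On Western diet 3 were higher and 4 lower in the knockout, near the background of 56.7%, with Pon1 at -3.34 ± 0.31, the fatty acid transporter Cd36 at 2.44 ± 0.37 and Apoa4 at 2.12 ± 0.33. On chow 2 were higher, Abcg1 (1.35 ± 0.29) and Apoa4 (1.11 ± 0.33), and 0 lower (background 19.0%).

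Of 15 measured genes of lipoprotein receptors and remnant uptake, 0 passed for diet in wild-type mice (limma; background 5.51%). Diet raised 7 and lowered 3 in knockout livers (background 49.9%), with Lrp12 at 2.41 ± 0.14. On Western diet 6 were higher and 3 lower in the knockout, near the background of 56.7%. Vldlr (2.65 ± 0.54) and Sorl1 (2.36 ± 0.30) were well above background on only 2 of 5 wild-type arrays, and Lrp2 (-4.95 ± 0.39) on 1 of 5 knockout arrays. On chow 3 were higher and 3 lower (background 19.0%), led by Lrp2 (-3.52 ± 0.39).

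Of 11 measured other lipases and lipolytic genes, 0 passed for diet in wild-type mice (limma; background 5.51%), and 2 rose and 5 fell in knockout mice (background 49.9%), with the carboxylesterases Ces1f (-6.02 ± 0.50) and Ces1d (-1.90 ± 0.17) lower and the phospholipase Pla1a higher (1.5 ± 0.22). Ces1f was lower by 6.80 ± 0.50 in knockout than in wild-type mice on Western diet, when 1 of the 11 was higher and 5 lower, near the background of 56.7%. On chow Mgll (-0.69 ± 0.22) and Abhd5 (-0.69 ± 0.17), both of intracellular lipolysis, were lower and the hormone-sensitive lipase gene Lipe was higher (0.57 ± 0.18; background 19.0%).

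Of 11 LXR target genes with Nr1h3 itself among them, 5 rose and 1 fell with Western diet in wild-type livers (background 5.51%), including the sterol transporters Abcg5 (1.82 ± 0.36) and Abcg8 (1.67 ± 0.29), and Cyp7a1, the first enzyme of bile acid synthesis, fell (-4.18 ± 1.12). In knockout livers 1 rose (Abcg1) and 6 fell (background 49.9%). Between genotypes 1 was higher and 9 lower in the knockout on Western diet (background 56.7%). On chow 1 was higher and 3 lower (background 19.0%). The targeted Nr1h3 was among the lower on both diets. For the interaction 0 of the 11 were higher and 7 lower (background 26.6%), among them Abcg5 (-2.64 ± 0.51) and Abcg8 (-3.56 ± 0.41). Lpl and Abcg1 rose with diet in both genotypes. The Lpl interactions of -0.62 and -0.92 did not pass, with intervals of -1.59 to 0.34 and -1.93 to 0.08. Lpl was not compared with these genes by a test, and the part of LXR in its diet response was not tested. Of 12 PPAR alpha targets, a class to which Angptl4 also belongs, 1 rose (Ehhadh, 0.96 ± 0.26) and 1 fell with diet in wild-type mice, (background 5.51%), and 2 rose and 7 fell in knockout mice (background 49.9%), led by Cyp4a14 (-5.45 ± 1.05) and Cyp4a10 (-4.20 ± 0.24).

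Genes with the most similar profiles were named by Pearson correlation over the arrays on which a member was usable, among 19537 probes well above background on all 20. Lpl probe 1 was followed most closely by Slc51b (0.950), an organic solute transporter subunit for bile acids, Dync2li1 (0.945) and Trip6 (0.938). For Lipc these were Coq9 (0.983), the array's probe NAP026388-1 (0.982) and Grsf1 (0.981). For Lcat they were the clotting factor gene F9 (0.978), Proz (0.977) and Grpel1 (0.975). Angptl4, over 10 arrays, was closest to Klf12 (0.982) and Vwa8 (0.981), and Lmf1, over 13, to Sil1 (0.960). Lipg was closest to BC038156 (0.894), Pltp to BG087313 (0.825) and Lrp1 probe 1 to Atp6v0a1 (0.850). Among the members themselves Lipc and Lcat correlated at 0.92, Lipc and Lmf1 at 0.84, and Lpl probe 1 and Angptl4 at -0.92 over 10 arrays. These correlations run over 4 groups that differ in genotype and diet, so they describe shared group differences as well as variation between mice.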

How the data were processed

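Liver RNA of 20 mice was hybridised to 1-colour Agilent arrays. The deposited spot intensities are Feature Extraction 9.5.3.1 processed signals (protocol GE1-v5_95_Feb07), background-subtracted with spatial and multiplicative detrending, per the file headers. The authors also deposited log2 values of 24493 probes, made with Feature Extraction 9.5 and limma per the submitters' processing notes; they correlated at 0.998 or more with log2 of the scanner's median signal on every array, their column medians were 7.73 to 7.78, and their between-array normalization and the limma version are not given in the sources used here.

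Control spots and spots marked as outliers were left out, repeat spots were averaged in log2 units, and log2 of each array's 75th percentile was subtracted. Probes that reached the well-above-background flag on 4 or more of the 5 arrays in any group were fitted with limma 3.58.1 (R 4.3.3, lmFit and eBayes, 16 residual and 2.41 prior degrees of freedom), with 4 group means and Benjamini-Hochberg adjustment over all probes of each of 5 comparisons. The 95% intervals take the SE of that fit and these degrees of freedom for every probe. Angptl4 and Lmf1, with spots left out, have fewer residual degrees of freedom. Their p-values account for this, but their intervals do not and are too narrow. The number of arrays limits the precision. Probe names were updated through RefSeq, 23374 by accession, 6733 by symbol and 2919 by synonym, and 8148 kept the name in the file. The text gives every probe of the 8 genes, up to 4 of the most changed genes per list and comparison, and up to 3 genes of the most similar profile; a few list genes are counted but not reported by name here.

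The members, pathway lists and marker lists were chosen with earlier results of these data known. Alternatives were scaling, background correction, filter, outlier spots, slide and replicate number as blocks, groups in the fit, moderation, the deposited normalized values and leaving out each array. Raising dim Lipg values to a floor and fitting normexp without outlier spots were chosen after seeing the data. The fit was tested on simulated data. Replicate numbers were not used as pairs in the main fit. The deviations of same-numbered mice correlated at -0.34 to 0.43. In the diet comparisons, where most same-numbered mice shared a slide, they correlated at -0.04 to 0.43, so number and slide cannot be told apart there. Differently numbered mice were not compared, so these values do not settle whether the numbers pair mice. Probe coordinates are those of the files (mm8).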

Additional observations from a re-analysis of the deposited data

Results flagged for a closer look

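The diet effect differed between genotypes by the direct test of that difference in limma for Lipc (-1.9, from -0.43 in wild-type to -2.33 in knockout livers), for Lcat (-0.969, from -0.28 to -1.25) and for Lipg (-2.39, from -0.52 to -2.91). These 3 of 10 probes are near the share of all probes that passed this test (26.3%). The Lipg test lay at the threshold, on a probe that was well above background on 1 of 5 knockout arrays on Western diet. That probe passed the filter only through the knockout group on chow, which the test uses.

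For Lrp1 probe 2, knockout mouse 4 on Western diet stood apart at 1.55, above the 1.32 to 1.38 of the other 4 mice of its group. It was the only such value in the 34 groups of member values with at least 4 usable mice, where chance alone would mark about 1 group in 20.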

How the results depend on the processing

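Of 18 member results that passed the test, 9 passed under every alternative that could be fitted: both Lpl probes for diet in both genotypes, Lipc in 3 comparisons and Lcat in 2. Of 32 that did not pass, 4 passed under some alternative and 6 took the opposite sign under some. Normexp left floors that differed between arrays (5% quantile 5.84 to 9.24 in log2 units) and gave 568, 5890, 171, 4872 and 1165 probes called for genotype on chow, genotype on Western diet, diet in wild-type, diet in knockout and the interaction, against 4814, 15107, 1333, 13128 and 6861; members called were 0, 2 and 1 for genotype on chow, genotype on Western diet and the interaction, Lcat among those lost in the last (-0.63, adjusted p = 0.370). Calls that normexp lost were also Lipc on chow (-0.77, adjusted p = 0.186), Lipg on Western diet between genotypes (-0.50, adjusted p = 0.425) and in the interaction (-0.69, adjusted p = 0.678), and Angptl4 with diet in wild-type (-1.62, adjusted p = 0.0923) and in knockout (-0.57, adjusted p = 0.437), beside Lipg with diet in knockout, Lmf1 and Lrp1 probe 1 as given above. Normexp fitted without outlier spots, added after seeing the data, had even floors (5.80 to 5.83) and called 3118 for genotype on chow. Median scaling called 699 probes for diet in wild-type and 3 members for genotype on Western diet; it moved the median of all probes from -0.17 to -0.30 in the latter and from -0.03 to 0.08 in the former. With 1 probe per gene, which tests fewer features, 9941 were called for genotype on Western diet. The share of calls that were higher was 51.2% for diet in wild-type and became 65.7% with median scaling, 38.6% with normexp and 40.9% with normexp without outliers; it went from 55.9% to 44.6% and from 42.8% to 30.9% with the last for genotype on chow and diet in knockout, and from 45.2% to 62.4% with normexp for the interaction.

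Opposite signs were found for Lrp1 probe 1 on chow with normexp (-0.072), Lpl probe 1 between genotypes on Western diet with quantile normalization (0.017) and the deposited normalized values (0.044), Lipg for diet in knockout within slide 4 (0.32), and, for the interaction, Pltp with median scaling (-0.023), normexp (-0.33) and normexp without outliers (-0.030), Angptl4 with outlier spots kept (-0.11) and Lmf1 with normexp without outliers (0.079). Leaving out 1 array at a time gave 0 to 1 members called on chow between genotypes, -0.061 to 0.15 for Lrp1 probe 1 there, -0.26 to 0.066 for Lrp1 probe 2 with diet in wild-type, and interactions of -0.31 to 0.33 (Pltp), -0.27 to 0.62 (Angptl4) and -0.13 to 0.022 (Lmf1). Probes called for diet in wild-type ranged from 856, without wild-type mouse 2 on Western diet, to 1422. The cause of these changes was not tested. Dim signal limits Lipg, and outlier spots limit Angptl4 and Lmf1.

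With the replicate number as a block, Angptl4 with diet in wild-type (-1.81, adjusted p = 0.0794) and the Lipg interaction (-2.39, adjusted p = 0.0580) did not pass, the Angptl4 interaction turned to -0.52, and no other member call changed.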
